A study of Mus musculus with 1 sample.

Results

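Myeloid cells are the phagocytes and granulocytes of the blood lineage. Here 32 genes of these cells were followed in single cells of control fetal testes. They were chosen by gene symbol from the 22631 features of the count table, and all 32 had UMIs (unique molecular identifiers, each counting 1 captured RNA molecule) in the kept cells. They comprised 13 genes shared by leukocytes or by several myeloid cells, 13 genes of macrophages and 6 genes of granulocytes (neutrophils and their precursors).

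The study compared control testes with testes whose Sertoli cells had lost the nuclear receptor NR5A1. All values below come from the control cells, and the mutant ones were not used here. The labels name 12 controls and the study's text 12 testes, pooled into 1 suspension and labelled embryonic day 14.5 and genotype WT. The methods also name an embryonic day 1 day earlier, and give the controls as fetuses with *Nr5a1* L2/L2 alleles and no Cre transgene on a mixed C57BL/6 and 129/SvPass background. Testes were dissociated with trypsin and no cell type was sorted, so the cells below came from whole fetal testes, blood included, and where a cell lay in the organ is not recorded.

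With 1 library there was no replicate and no test between groups was possible. Sums of UMIs are given per 1000000 UMIs of the same cells (CPM) with exact Poisson 95% intervals, and shares of cells with exact Clopper-Pearson 95% intervals. Both cover counting error only, and neither the spread between fetuses nor that between dissociations. A droplet's free RNA can also give UMIs to a cell that does not make a gene.

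Macrophages are resident phagocytes that enter fetal organs early and clear dying cells. In the fetal testis they are known to lie near the forming vessels and cords. Their growth and survival depend on the receptor encoded by *Csf1r*, and they secrete the 3 chains of complement C1q. Granulocytes are short-lived phagocytes that mature in the fetal liver and bone marrow through precursors, which fill azurophil granules with myeloperoxidase (*Mpo*), neutrophil elastase (*Elane*) and proteinase 3 (*Prtn3*) before they load their cytosol with the calcium-binding proteins S100A8 and S100A9. *Spi1* encodes PU.1, an ETS-family transcription factor needed for both lineages, which binds DNA at a core of purines.

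Sequences from before the RefSeq starts of 6 members are shown because they are genes of the 2 programs that separate below, 2 from the macrophage list and 4 from the granulocyte list, and all 6 hold the same purine-rich letters. They were read 5′ to 3′ on the strand of the gene from RefSeq promoter windows of the GRCm38.p6 build, each from 250 bases before the RefSeq start to the base before the first base within that stretch that GENCODE annotates as an exon of the gene, or to the start where there is none. Capitals mark GAGGAAGT or its reverse complement.
C1qc, chr4:136893066-136893164, minus strand: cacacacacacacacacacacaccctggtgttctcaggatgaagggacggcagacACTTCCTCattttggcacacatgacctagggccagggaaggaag
Pf4, chr5:90772185-90772434, plus strand: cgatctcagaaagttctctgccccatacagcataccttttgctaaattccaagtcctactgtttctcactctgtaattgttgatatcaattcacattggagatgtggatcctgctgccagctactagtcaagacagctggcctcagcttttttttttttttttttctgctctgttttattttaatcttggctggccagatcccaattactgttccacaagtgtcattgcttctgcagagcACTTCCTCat
S100a8, chr3:90668821-90668977, plus strand: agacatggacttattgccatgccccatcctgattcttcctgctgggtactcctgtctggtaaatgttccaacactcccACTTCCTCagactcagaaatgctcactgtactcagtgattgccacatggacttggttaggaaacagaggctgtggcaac
Prtn3, chr10:79879417-79879613, plus strand: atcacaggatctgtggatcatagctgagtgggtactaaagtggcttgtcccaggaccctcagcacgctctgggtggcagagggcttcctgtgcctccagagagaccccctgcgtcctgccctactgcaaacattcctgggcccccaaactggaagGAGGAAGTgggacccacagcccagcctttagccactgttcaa
Elane, chr10:79886062-79886246, plus strand: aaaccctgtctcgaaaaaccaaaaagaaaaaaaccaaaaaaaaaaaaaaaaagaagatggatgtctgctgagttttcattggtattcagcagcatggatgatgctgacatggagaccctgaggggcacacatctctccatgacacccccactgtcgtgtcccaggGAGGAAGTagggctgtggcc
Mpo, chr11:87793534-87793580, plus strand: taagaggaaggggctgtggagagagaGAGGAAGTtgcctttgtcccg

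RefSeq windows of 300 bases, 250 before and 50 after the start, were searched for 25 of the 32 members. *Csf1r* and *Cd14*, on chromosome 18, were left out of the member search. No window was matched to *Tyrobp*, *Spi1*, *Cd52*, *C1qa* and *Adgre1*. The 25 genes had 29 windows, some of them more than 1, so a share of genes and a share of windows are unlike measures. GAGGAAGT stood on either strand in windows of 8 of these 25 genes, against 3.20% of all 32851 windows. The 8 were *C1qc*, *Ctss* and *Pf4* of the macrophage list, *S100a8*, *Prtn3*, *Elane* and *Mpo* of the granulocyte list, and *Ly6c2*. In *Prtn3* its first base lay 95 bases before the RefSeq start and in *Elane* 85 bases before it. The *Prtn3* stretch lies within the annotated span of the gene but outside its exons. The shorter GAGGAA, which every GAGGAAGT contains, stood in 18 of the 25 genes and in 28.3% of all windows. TGTGGT, the core letters of RUNX factors, stood in 8 genes against 16.8% of windows, TTGCNNAA, those of C/EBP factors, in 5 genes against 10.8%, and TGACTCA, those of AP-1, in 1 gene (*Cd68*) against 5.20%. Altogether 8 patterns were searched on both strands, of which AGGAAG and GGAAGTG overlap GAGGAAGT. AGGAAG stood in 18 genes and 35.4% of windows, GGAAGTG in 10 genes and 11.0%, and TATAAA in 5 genes and 13.6%. A match describes the letters and is not a binding site.

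Several members neighbour each other in the GENCODE annotation of GRCm38. *C1qa* (chr4:136895917-136898803), *C1qc* (chr4:136889804-136893065) and *C1qb* (chr4:136880129-136886187) lie on the minus strand with gaps of 2851 and 3616 bases. *Prtn3* (chr10:79874476-79883174) and *Elane* (chr10:79886247-79888215) lie on the plus strand 3072 bases apart, and *S100a8* (chr3:90668978-90670035) and *S100a9* (chr3:90692632-90695721) lie on opposite strands 22596 bases apart.

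The library held 72595083 UMIs in 5421 barcodes, of which 5049 had at least 200 genes. After removal of 204 likely doublets and 1036 outliers, 3809 cells were kept, with a median of 12038 UMIs and 3573 genes and a range of 2284 to 53128 UMIs. Clusters were made without the 32 members and named from other marker genes, with "-like" added because the names rest on markers alone.

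*Ptprc*, which encodes the pan-leukocyte phosphatase CD45, and *Tyrobp*, which encodes the adaptor DAP12 of myeloid and natural killer cell receptors, were used to find leukocytes. A UMI of either was found in 43 of the 3809 kept cells (1.13%, 0.818% to 1.52%), called marked cells from here on. *Tyrobp* was found in 41 of them (1005 UMIs), *Ptprc* in 35 (103 UMIs) and both in 33. The marked cells had a median of 14247 UMIs (3315 to 34303), against 12028 in the other 3766 cells.

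The clustering, which had seen none of the members, put 36 of the 43 marked cells in a single cluster of 37 cells. All 10 of its immune markers stood in at least 25% of its cells, and it was called immune-like. The genes outside the members that led it by fold included *Fcgr3* and *Ms4a6c* of phagocytes and *Cpa3* and *Cma1* of mast cells. The 36 cells held at least 2 UMIs of *Ptprc* and *Tyrobp* together and between 13 and 2340 UMIs of the other 30 members. The 7 marked cells elsewhere differed plainly from these. They were 5 interstitial-like, 1 peritubular myoid-like and 1 rete testis-like cell, with 1 or 2 UMIs of *Ptprc* and *Tyrobp*, no UMI of a macrophage or granulocyte gene, and 1 UMI in all (*Lcp1*) of the other shared members.

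All 30 members other than *Ptprc* and *Tyrobp* were at least 4-fold higher in the marked cells than in the other cells, with 5 CPM added to both levels. Of the 14396 genes with at least 20 UMIs in the kept cells, 499 (3.47%) were. The 20 UMIs could all stand in the marked cells. In the other cells *C1qa* had 0 UMIs, *Elane*, *Cybb* and *Ly6c2* 1 each and *Ctss* 2. Such members entered through the marked cells, and their passing was near certain. The members were also chosen with earlier results of these data known. The count of 30 is therefore a description and no support for the list. The median log2 fold of the 30 members was 6.52 (2.80 to 9.31), against −0.26 over all genes tested, and the median was the same with *C1qa*, at 0 in the other cells, set to 3 UMIs there. By group, 11 of 11 shared, 13 of 13 macrophage and 6 of 6 granulocyte genes passed this size. With 20 CPM added all of them but *Itgam* did, and with 5 CPM added all 30 did without the marked cell that held the most UMIs of each gene.

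As a list, the 13 macrophage genes had 4572 UMIs in the marked cells, which is 7207 CPM (6999 to 7419), and 7.82 CPM (7.09 to 8.61) in the other cells. The 6 granulocyte genes had 6151 UMIs, 9696 CPM (9455 to 9941), and 3.73 CPM (3.23 to 4.29). The level in the marked cells was a sum over few cells, so it followed which barcodes were counted, and with neither the doublet nor the outlier filter it was 4018 CPM for the macrophage and 5557 CPM for the granulocyte list. Of the 419 macrophage UMIs in the other cells, 216 were *Pf4* in 1 cell, described below, and without it the list stood at 3.79 CPM. Where a marked cell had to hold a UMI of both genes, the remaining cells stood at 15.9 CPM for the granulocyte list, since a granulocyte cell without *Ptprc* was then among them.

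**Figure D1:**
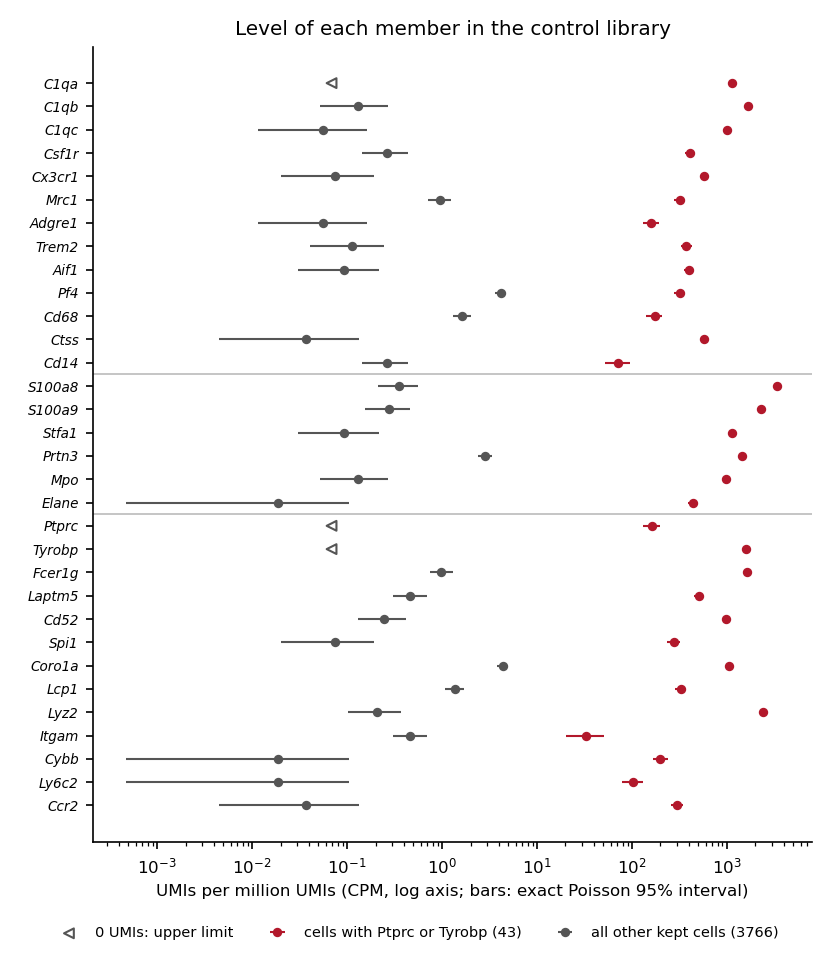
Level of each of the 32 members in CPM (log axis) in the 43 kept cells with Ptprc or Tyrobp (red) and in the other 3766 kept cells (grey), with exact Poisson 95% intervals for counting error. Open triangles mark the upper limit for C1qa, Ptprc and Tyrobp, which had 0 UMIs in the other cells, the latter 2 by construction. The grey points furthest to the right are Coro1a, Pf4 and Prtn3.

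The marked cells were then sorted by how many genes of each list they held. A cell was taken to hold a list when at least 3 of its genes had a UMI, which is a range of counts and not a cell type. The macrophage list alone was held by 21 cells (0.551% of the kept cells, 0.342% to 0.842%), the granulocyte list by 7 (0.184%, 0.0739% to 0.378%), and neither by 15. Of the 7, 4 also held 3 to 6 macrophage genes and 3 held none. Near the limit, 1 cell had exactly 3 macrophage genes and 3 cells had 2, while 1 cell had exactly 3 granulocyte genes and 2 cells had 2. None of the 3766 other cells held more than 2 genes of either list.

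In single cells the UMIs of the 2 lists mostly stood apart. The sort added to this, since a cell with 3 or more granulocyte genes could not be among the 21. In the 21 cells the macrophage genes took from 31.4 to 281 UMIs per 10000 UMIs of the cell (median 151) and the granulocyte genes from 0 to 2.44 (median 0). In the 4 cells that held both lists the granulocyte genes took from 163 to 1159 per 10000 and the macrophage genes from 1.74 to 26.5, and in the 3 that held the granulocyte list alone the values were 261, 279 and 717 per 10000 with no macrophage UMI. The 4 cells with both lists had 86.3% to 99.6% of their UMIs of the 2 lists in granulocyte genes. They were counted with the granulocyte cells in the sums that follow. That name stands for the list held and not for a cell type, and some of the 4 also held genes of monocytes, as given below.

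**Figure D2:**
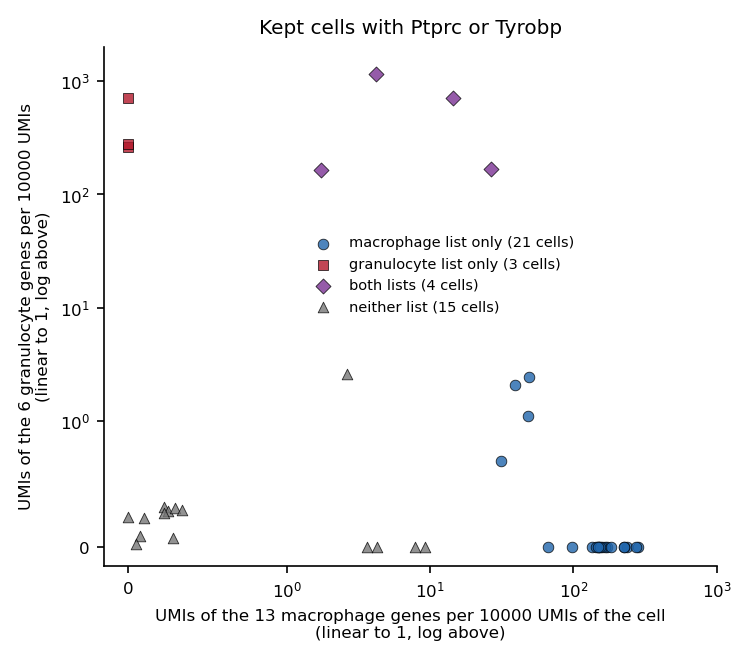
UMIs of the 13 macrophage genes (x) and of the 6 granulocyte genes (y) per 10000 UMIs in each of the 43 marked cells, on axes that are linear to 1 and logarithmic above. Cells at 0 on both axes were spread by a small random shift so that they can be seen. The 21 cells with the macrophage list alone lie along the bottom right and the 7 with the granulocyte list along the top. Of these 7, the cell furthest to the right stands at 26.5 on the x axis and 167 on the y axis.

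The chains of C1q, which open the classical complement pathway and help phagocytes bind dying cells, had the highest levels of the macrophage list in the 21 cells. *C1qb* had UMIs in 19 of the 21 macrophage-list cells (lowest 0, median 43, highest 159 UMIs a cell), *C1qc* in 19 (0, 21 and 87) and *C1qa* in 16 (0, 27 and 138). All 3 chains were at 0 in each of the 7 granulocyte cells, which allows at most 27.3 CPM for each (the upper 95% limit), against 3451 CPM (3248 to 3664) for *C1qb* in the macrophage-list cells. *C1qa* had no UMI in any of the 3766 other cells, and *C1qb* had 7 and *C1qc* 3. A count of 0 in 3766 cells allows a share of up to 0.0979% of cells with a UMI (the upper 95% limit), which does not limit the share of cells that express the gene.

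Receptors of the list were found more evenly. *Csf1r*, the receptor of colony-stimulating factor 1, and *Trem2*, a lipid receptor that signals through DAP12, each had UMIs in 21 of 21 macrophage-list cells, from 3 to 24 (median 11) and from 3 to 31 (median 10) UMIs a cell. *Cx3cr1*, the receptor of fractalkine, was also found in 21 of 21 cells (1 to 42, median 14). *Adgre1*, which encodes the F4/80 antigen, was found in 19 cells and never above 13 UMIs. In the 7 granulocyte cells *Trem2* was at 0, *Csf1r* had 5 UMIs in 2 cells and *Cx3cr1* 8 UMIs in 2 cells.

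Of the lysosomal genes, *Ctss*, which encodes the protease cathepsin S, was found in 21 of 21 macrophage-list cells (2 to 41, median 17) and *Cd68*, a glycoprotein of late endosomes, in 19 (0 to 17, median 4). *Ctss* had 23 UMIs in 3 of the granulocyte cells, the largest macrophage-list count there. Of these, 13, 2 and 8 UMIs stood in 3 cells that held both lists. *Aif1*, which encodes the actin-binding protein IBA1, was found in 21 of 21 cells (1 to 28, median 9), and *Cd14*, the lipopolysaccharide co-receptor, in 15 (0 to 6, median 2).

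*Mrc1*, the mannose receptor, and *Pf4*, a chemokine best known from platelets and also made by some tissue macrophages, were found in only part of the 21 cells, *Mrc1* in 16 (202 UMIs) and *Pf4* in 13 (202 UMIs). Cells without *Pf4* were mostly those with *Ccr2*, the receptor that recruits monocytes from the blood. *Pf4* without *Ccr2* was found in 13 cells, *Ccr2* without *Pf4* in 7, neither in 1 and both in 0. This split was chosen after the values had been seen, so it is a description of these 21 cells.

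The 13 *Pf4* cells had 3762 to 30656 UMIs and the 7 *Ccr2* cells 9533 to 24561, so their depths overlapped. Beside *Pf4* and *Ccr2* themselves, *Mrc1* was the 1 member of the 32 whose values per 10000 UMIs did not overlap. Genes outside the members were not examined for overlap, so how common this is among all genes is not known. *Mrc1* had 192 UMIs in 13 of 13 *Pf4* cells (5 to 45 a cell) and 3 UMIs in 2 of 7 *Ccr2* cells. *C1qa* was at 2980 CPM (2734 to 3241) in the *Pf4* cells, where it was found in 13 of 13, and at 353 CPM (251 to 482) in the *Ccr2* cells, where 5 of 7 had none. *C1qb* stood at 4415 against 1446 CPM and *C1qc* at 2672 against 678 CPM, with the same 2 *Ccr2* cells at 0 for both.

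Other members ran the opposite way in their sums. *Lyz2*, which encodes lysozyme, was at 880 CPM (749 to 1027) in the *Pf4* cells and 4185 CPM (3812 to 4584) in the *Ccr2* cells. *Cd52*, a small surface glycoprotein, was at 517 against 1862 CPM, *Cybb*, the catalytic subunit of the phagocyte NADPH oxidase, at 148 against 488 CPM, and *Coro1a*, an actin-binding coronin, at 962 against 2242 CPM. For these 4 genes the values of single cells overlapped between the groups. *Trem2* (742 and 651 CPM), *Spi1* (357 and 362 CPM), *Lcp1* (390 and 389 CPM) and *Cd14* (126 and 127 CPM) had intervals that overlapped.

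**Figure D3:**
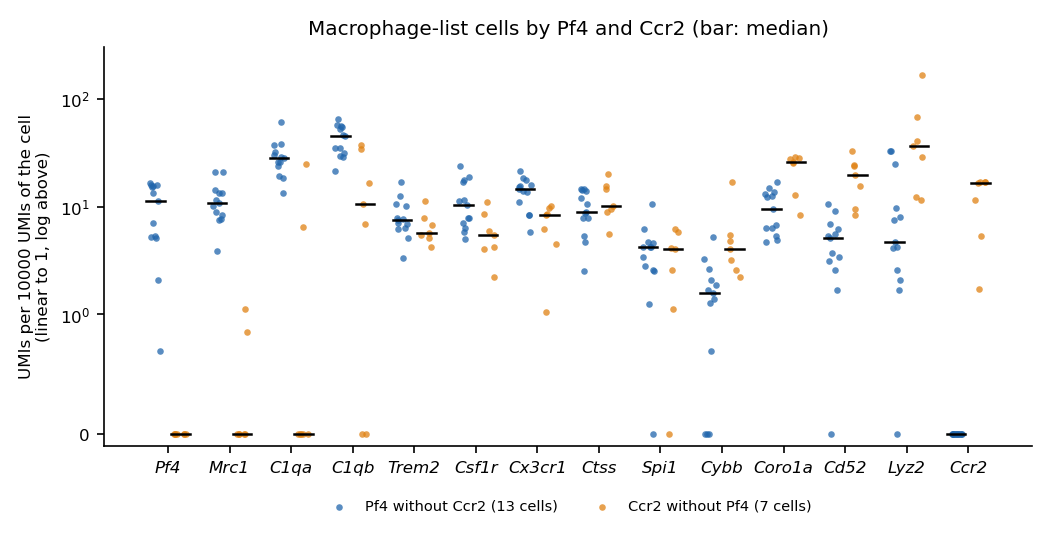
UMIs per 10000 UMIs of 14 members in the 13 macrophage-list cells with Pf4 and no Ccr2 (blue) and the 7 with Ccr2 and no Pf4 (orange), 1 point a cell, black bar at the median, on an axis that is linear to 1 and logarithmic above. Pf4 and Ccr2 define the groups. Mrc1 separates them without overlap, C1qa, C1qb and Lyz2 differ in their medians with overlap, and Spi1 and Ctss lie together.

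One of the 21 macrophage-list cells, a *Pf4* cell of 23945 UMIs, had 41.9% of its UMIs in hemoglobin genes, whereas the other 20 had at most 0.0521%. It held all 13 macrophage genes, with 76 UMIs of *C1qa* and 84 of *C1qb*. The part of red cell RNA in its counts was not tested.

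The 7 granulocyte cells were not alike. *S100a8* and *S100a9*, whose products form calprotectin, had in the 4 cells that also held macrophage genes 210 and 9 UMIs (cell of 13561 UMIs), 620 and 703 (16765 UMIs), 408 and 235 (10442 UMIs), and 1 and 0 (17272 UMIs). The same 2 genes had 534 and 425 (19483 UMIs), 214 and 60 (34303 UMIs), and 167 and 32 (23374 UMIs) in the 3 cells that held none. *S100a8* was thus found in 7 of 7 cells and *S100a9* in 6, and 1 cell lacked the pair but for a single UMI.

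The azurophil granule genes had another distribution. In the same order of cells, *Prtn3* had 0, 144, 1, 129, 162, 250 and 213 UMIs. *Mpo* had 0, 31, 0, 129, 61, 245 and 149 UMIs, and *Elane* 0, 63, 0, 15, 59, 97 and 47 UMIs. The first and the third cell, with 210 and 408 UMIs of *S100a8*, were at 0 for *Mpo* and *Elane*, and the fourth, with 1 UMI of *S100a8*, had 129 UMIs of both *Prtn3* and *Mpo*.

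*Stfa1*, a cystatin-type protease inhibitor of myeloid precursors, had 8, 382, 99, 8, 155, 29 and 44 UMIs in these cells and none in the 21 macrophage-list cells. It belongs to a cluster of near-identical genes, among which reads may be split or lost, so its level is uncertain. Its relatives outside the members, *Cstdc5* (345 UMIs) and *Cstdc4* (175 UMIs), led the genes by fold in the granulocyte cells, each found in 5 of 7.

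The grouping itself limited granulocyte genes in the macrophage-list cells, since a cell with 3 or more was counted with the granulocyte cells, so their levels there are a description. *S100a9*, *Stfa1*, *Mpo* and *Elane* had 0 UMIs there, which allows at most 11.9 CPM each, against 10828 CPM (10281 to 11398) for *S100a9* in the granulocyte cells. *S100a8* had 1 UMI and *Prtn3* 10 UMIs in 4 cells, all of them *Ccr2* cells and 1 of them with 6.

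**Figure D4:**
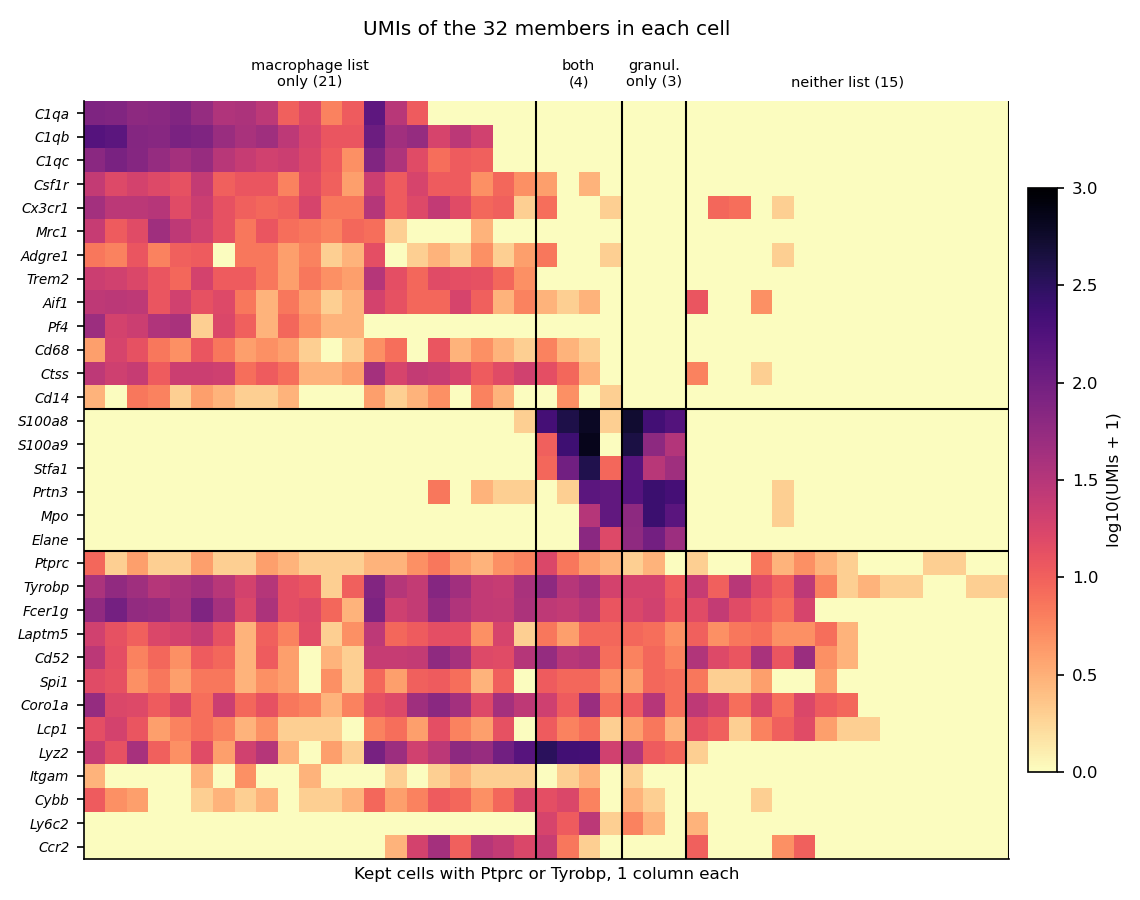
UMIs of the 32 members, as log10(UMIs + 1), in each of the 43 marked cells (columns), grouped by the lists they hold, with macrophage genes in the top block, granulocyte genes in the middle and shared genes at the bottom. Within the first 21 columns the cells with Pf4 come first and those with Ccr2 last. The macrophage and granulocyte blocks are filled mostly in different columns, and most of the shared block is filled in both. The 7 marked cells outside the immune-like cluster are nearly empty at the far right.

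The shared members were found in both kinds of cell. *Tyrobp*, which helped to select the cells, was found in 21 of 21 macrophage-list and 7 of 7 granulocyte cells. *Fcer1g*, the gamma chain of Fc receptors, was not used for the selection and was found in the same numbers of cells, at 2591 CPM (2415 to 2776) and 1013 CPM (851 to 1198). *Laptm5*, a lysosomal protein of leukocytes, was found in all 28 cells, and *Spi1* in 19 of 21 (364 CPM, 300 to 438) and in 7 of 7 (355 CPM, 262 to 471).

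Genes of the leukocyte cytoskeleton were also found in both. *Coro1a* had UMIs in 21 of 21 and 7 of 7 cells, and *Lcp1*, which encodes the actin bundler L-plastin, in 19 of 21 and 7 of 7. *Itgam*, the alpha chain of the integrin CD11b, was sparse, with 17 UMIs in 10 macrophage-list cells and 4 UMIs in 3 granulocyte cells. *Cybb* was found in 18 of 21 and 5 of 7 cells.

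*Lyz2* had a sum of 6132 CPM (5721 to 6564) in the 7 granulocyte cells and 2294 CPM (2129 to 2469) in the macrophage-list cells. Summed over the 4 granulocyte cells that also held macrophage genes, the level was above the latter, at 13422 CPM (12496 to 14398). Summed over the 3 with the granulocyte list alone, it was below, at 648 CPM (481 to 854). *Lyz2* was uneven in the 7, with 321, 219, 220, 19, 32, 10 and 8 UMIs in the order used above. The first 4 values belong to cells that also held macrophage genes, and the sum of these cells rests on the first 3. The fourth cell, with 19 UMIs of *Lyz2* in 17272, held 3 macrophage genes with 1 UMI each (*Cx3cr1*, *Adgre1* and *Cd14*).

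*Ly6c2*, a surface antigen of monocytes and granulocyte precursors, was at 0 in the 21 macrophage-list cells and had 63 UMIs in 6 of the 7 granulocyte cells. It is nearly identical to *Ly6c1*, which had 0 UMIs in the marked cells and 148 in the others. *Ly6c2* had 65 in the marked cells and 1 in the others, so the counts of the pair stood apart. Whether the counting separates the pair in full was not tested. *Ccr2* had 22, 1 and 6 UMIs in the first 3 granulocyte cells and none in the other 4. The cell with 22 held 6 macrophage genes, *Lyz2* at 321 UMIs, *Ly6c2* at 17 and *S100a8* at 210. The cell with 6 held 4 macrophage genes, *Lyz2* at 220 UMIs, *Ly6c2* at 10 and *S100a8* at 408. Both were at 0 for *Mpo* and *Elane*. Sums over the 7 granulocyte cells therefore include cells with genes of monocytes. Whether these 2 cells were monocytes was not tested.

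In the 15 marked cells with neither list, 8 lay in the immune-like cluster and 7 elsewhere. The 8 held 117 UMIs of *Tyrobp*, 162 of *Cd52* and 108 of *Coro1a*, each found in 8 of 8 cells, but 1 UMI of *Lyz2*. *Spi1* was found in 5 of them and *Ptprc* in 6. Genes outside the members stood in these cells. *Cpa3*, the mast cell carboxypeptidase, had 40, 140 and 75 UMIs in 3 of them, 2 of which also held 8 and 7 UMIs of *Cx3cr1*. *Cd74*, the invariant chain of MHC class II, had 14 and 56 UMIs in 2 others. The remaining 3 had 10, 3 and 5 UMIs of *Il7r*, a lymphoid cytokine receptor, and 1 of these had 17 UMIs of *Cd79a*, a subunit of the B cell receptor.

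Among the lists of other genes, those of tissue macrophages and of granule precursors separated as the members did. Of 15 tested tissue-resident and fetal macrophage genes, 11 were at least 4-fold higher in the marked cells, against 3.47% of genes. In the macrophage-list cells 12 were at least 4-fold higher than in the granulocyte cells, against 4.54% of 14396 genes. *Fcgr1* and *Ms4a7* had 0 UMIs in the other cells and *P2ry12* 4. Such genes entered through the macrophage-list cells, which held 105 of 106, 68 of 68 and 55 of 60 of their UMIs. Their passing was near certain in both counts, which are descriptions. Without the marked cell with the most UMIs of each gene, 8 of the 11 stayed past 4-fold in the marked cells, and *Maf*, *Folr2* and *Lyve1* did not. The 12 were not counted again in this way. In the macrophage-list cells *Lyve1* had 30 of 32 UMIs in 1 cell and *Folr2* 8 of 15. The macrophage-list cells held 310308 UMIs of all genes and the granulocyte cells 135200. *Stab1*, a scavenger receptor, had 187 UMIs in 16 of 21 macrophage-list cells and 1 UMI in the granulocyte cells. *Fcgr1*, a high-affinity IgG receptor, had 105 and 1, and *Ms4a7* 68 and 0. *Apoe*, which carries lipids, had 6488 and 90, with 1453 of the 6488 in 1 cell. Outside the marked cells *Apoe* had 8738 UMIs in 2156 cells. *Folr2*, *Lyve1* and *Cd163*, other markers of resident macrophages, were found in 3, 3 and 0 of the 21 cells.

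Of 15 granule and neutrophil precursor genes in the count table, 9 had enough UMIs to be tested. Of these, 8 were at least 4-fold higher in the marked cells, against 3.47% of genes. The same number were at least 4-fold higher in the granulocyte than in the macrophage-list cells, against 1.87% of genes. *Ctsg* and *Fcnb* had 0 UMIs in the other cells, *Ms4a3* and *Lcn2* 1 each and *Stfa3* 2. These genes entered through the granulocyte cells, so their passing was near certain in both counts, which are descriptions. Without the top cell of each gene 7 of the 8 stayed past 4-fold in the marked cells, and *Lcn2* did not. The contrast with the macrophage-list cells was not counted again in this way. In the granulocyte cells *Camp* had 72 of 99 UMIs in 1 cell and *Lcn2* 24 of 31. *Ctsg*, which encodes the granule protease cathepsin G, had 182 UMIs in 4 of 7 granulocyte cells, *Ms4a3* 139 in 5, *Fcnb*, which encodes ficolin B, 76 in 6, and *Cebpe*, a transcription factor of late granule genes, 52 in 6. *Camp*, the cathelicidin of specific granules, had 99 UMIs in 4 of the 7. The genes of mature neutrophil granules *Ngp*, *Ltf* and *Retnlg* had 0 UMIs in all kept cells.

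Of the remaining lists, 6 of 8 complement and Fc partner genes were past 4-fold in the marked cells (3.47% of all genes tested were), such as *C3ar1* (80 UMIs, all in macrophage-list cells) and *Fcgr3* (332 UMIs in 32 cells). Of the myeloid transcription factors 3 of 6 were, with *Irf8* at 287 CPM in the macrophage-list and 148 CPM in the granulocyte cells. The counts were 4 of 5 for MHC class II, 2 of 4 for monocyte, 3 of 4 for mast cell and basophil, 3 of 3 for lymphoid, 0 of 2 for megakaryocyte and platelet and 0 of 4 for cell division genes, beside the same 3.47%. Of the 8 lymphoid genes only 3 had enough UMIs to be tested. *Il7r*, with 21 of its 22 UMIs in the marked cells, entered through them, as did *Nkg7* (67 of 71) and *Cpa3* (256 of 259). *C3ar1* (80 of 83), *Fcgr3* (332 of 338) and *Itgb2* (41 of 43) did too. The same held for *C5ar1* (23 of 24) and *Fcgr2b* (18 of 20). The passing of all these genes was near certain, so the counts of their lists are descriptions. Without the top cell of each gene, 1 of the 4 MHC class II genes (*Cd74*) and 2 of the 3 lymphoid genes (*Il7r* and *Nkg7*) stayed past 4-fold. In the lymphoid list *Nkg7*, a granule protein best known from cytotoxic lymphocytes, had 67 UMIs in the marked cells, 52 of them in 4 granulocyte cells, and 4 in the other cells. In the mast cell list *Hdc*, which makes histamine, had 54 UMIs in the marked cells, 24 of them in 3 granulocyte cells, and 271 in the other cells, and *Plac8* of the monocyte list was at 2729 CPM in the granulocyte and 267 CPM in the macrophage-list cells. All but 8 of the UMIs of *Cd74* and every UMI of *H2-Aa* in the marked cells lay in 2 of the cells with neither list. The 4 cell division genes did not run 1 way. *Mki67*, a proliferation marker, was found in 7 of 21 macrophage-list and 6 of 7 granulocyte cells (200 and 407 CPM). *Top2a* was found in 10 and 4 cells (245 and 399 CPM), *Cdk1* in 11 and 5 (190 and 222 CPM) and *Ccnb1* in 7 and 4 (190 and 51.8 CPM).

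Ligands for the receptors among the members were looked for in all classes. *Csf1*, the ligand of the *Csf1r* product, was sparse, at 6.22 CPM (3.68 to 9.82) in coelomic epithelium-like and 8.38 CPM (3.07 to 18.2) in endothelial-like cells and under 3 CPM in the others but the 13 rete testis-like cells (2 UMIs). *Il34*, its other ligand, was never above 1.54 CPM. *Cx3cl1*, which encodes the fractalkine bound by the *Cx3cr1* product, had 227 UMIs in 188 of 924 Sertoli-like cells, 17.2 CPM (15.1 to 19.6), and at most 4.19 CPM in every other class but the rete testis-like cells, with 6 UMIs (38.2 CPM, 14.0 to 83.2). *Ccl2* and *Ccl12*, ligands of the *Ccr2* product, were past 4-fold in the marked cells themselves, with 20 and 38 UMIs in 5 and 8 of the macrophage-list cells. They were the 2 that passed of 6 tested genes of their list, beside 3.47% of all genes tested. For *Ccl2* 16 of the 20 stood in 1 cell, and without it the fold was 2.17. *Ccl12* was at 9.61-fold without its top cell. It had 1 UMI in the other cells and entered through the marked cells, so its passing was near certain.

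Outside the marked cells most members had few UMIs. *C1qa* was at 0, and *Cybb*, *Ly6c2*, *Elane*, *Ccr2* and *Ctss* had 1 or 2 UMIs over 53567222. The median share of cells with a UMI over the 32 members was 0.186%, with *Ptprc* and *Tyrobp* at 0 by construction. In the marked cells the shares of the other 30 members ran from 11.6% (*Elane*) to 83.7% (*Laptm5* and *Coro1a*). *Tyrobp*, at 95.3% there, helped to select the cells. *Coro1a*, *Prtn3*, *Cd68*, *Lcp1*, *Mrc1* and *Fcer1g* had UMIs in over 1% of the other cells. Of these *Coro1a*, *Lcp1* and *Mrc1*, and with fewer cells *Itgam* and *Pf4*, had most of their UMIs in 1 class.

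*Coro1a* had 235 UMIs in the other cells, of which 205 (87.2%) were in germ-like cells, the class of the fetal germ line, which held 16.0% of the UMIs there. Its level was 23.9 CPM (20.8 to 27.4) in germ-like cells, against 0.38 CPM (0.12 to 0.89) in Sertoli-like cells and 1188 CPM (1101 to 1281) in immune-like cells. It was found in 118 of 246 germ-like cells (48.0%), which had a median of 35960 UMIs a cell. Thinned to 5000 UMIs a cell, 10.7% of germ-like and 0.35% of Sertoli-like cells held it.

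*Lcp1* had 73 UMIs, of which 52 were in 29 of the 42 endothelial-like cells, 72.6 CPM (54.2 to 95.2), against 0.38 CPM (0.12 to 0.89) in Sertoli-like cells. *Laptm5* had 11 of its 25 UMIs in 9 endothelial-like cells, 15.4 CPM (7.67 to 27.5). No macrophage or granulocyte gene had more than 2 UMIs in that class. After thinning to 5000 UMIs, *Lcp1* was held by 33.3% and *Laptm5* by 16.7% of the 42 cells.

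*Itgam* had 22 of its 25 UMIs in 18 of 222 Leydig-like cells, 4.89 CPM (3.06 to 7.40), and none in 924 Sertoli-like cells. That made the marked cells hold 45.7% of all its UMIs, the lowest share of any member. *Mrc1* had 42 of its 51 UMIs in 37 of 924 Sertoli-like cells, 3.19 CPM (2.30 to 4.31), against 0.23 CPM (0.05 to 0.66) in interstitial-like cells. Thinning to 5000 UMIs left shares of 2.28% for *Itgam* in Leydig-like and 1.29% for *Mrc1* in Sertoli-like cells, against 0.08% and 0.16% in interstitial-like cells.

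*Prtn3* and *Cd68* were spread over many classes. *Prtn3* had 153 UMIs in 137 of the other cells and at most 2 in any cell, with 3.32 CPM in interstitial-like, 5.07 CPM in peritubular myoid-like and 3.74 CPM in germ-like cells. Its ratio to other granulocyte genes was not that of the marked cells. *Prtn3* had 0.422 UMIs per UMI of *S100a8* in the marked cells and 8.05 in the other cells. Per UMI of *Elane* it had 3.24 against 153, the latter resting on 1 UMI of *Elane*. The source of the *Prtn3* UMIs in the other cells was not tested. *S100a9* and *S100a8*, with 15 and 19 UMIs in the other cells, kept 0.789 against 0.679 in the marked cells. *Cd68* had 88 UMIs in 87 cells and stood between 1.37 and 3.33 CPM in the classes with more than 100 cells. It had 12.6 UMIs per UMI of *C1qb*, which had 7 UMIs there, against 0.103 in the marked cells.

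*Pf4* had 222 UMIs in 7 of the other cells, and 216 of them stood in 1 cell of the Leydig-like class. The 6 genes of the megakaryocyte and platelet list, which make the glycoproteins and chemokines of platelets, had 66 UMIs in that cell. It held no *Ptprc* and no *Tyrobp* UMI and no more than 2 macrophage genes. The other 6 cells had 1 *Pf4* UMI each.

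**Figure D5:**
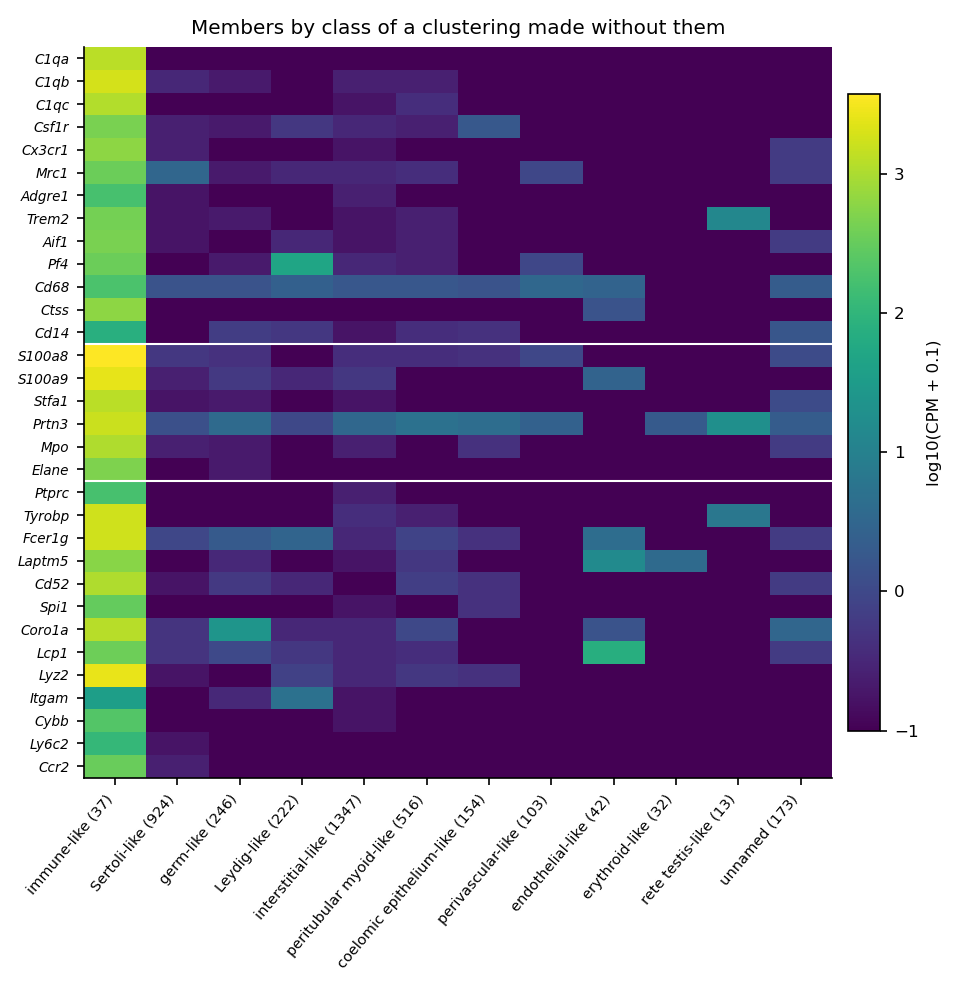
Level of each member as log10(CPM + 0.1) in the 12 classes of a clustering made without the members (number of kept cells in brackets, marked cells included). The immune-like column is high for all 32 members, and fields that stand out in their row outside it are Coro1a in germ-like, Lcp1 and Laptm5 in endothelial-like, Itgam and Pf4 in Leydig-like and Mrc1 in Sertoli-like cells. Prtn3, at 5.07 CPM in peritubular myoid-like cells, is raised in several columns, Pf4 in Leydig-like cells comes from 1 cell, and fields of the rete testis-like column (13 cells) rest on 1 to 3 UMIs.

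The filters also took marked barcodes. Of 56 with at least 200 genes, 13 were removed, 6 as doublets and 7 as outliers alone, and 9 of the 13 had 1 UMI of *Ptprc* and *Tyrobp* together. Among them 2 held the macrophage list, with 12 and 11 macrophage UMIs in barcodes of 1606 and 512 UMIs, and none held the granulocyte list. Those removed also included barcodes with 75 and 81, and with 24 and 47, UMIs of *S100a8* and *S100a9*. With every barcode of at least 200 genes counted, 23 cells held the macrophage list alone and 7 the granulocyte list.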

How the data were processed

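Single cells of 1 control library, a pool of testes, were analysed. The deposited values are raw UMI counts per gene and barcode, and the authors obtained them by Cell Ranger (versions 3.0.2 and 3.1.0 in the submitters' processing notes, 3.1.0 in the matrix header, another in the methods) on mm10 joined to YFP, with no normalization. The mutant library was not used here. Of 22631 features, 22590 matched GENCODE vM21.

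Barcodes with under 200 genes, doublets (expected rate 4.04%, 25% artificial doublets, nearest 2% of cells) and cells beyond 3 median absolute deviations were left out. Seurat 5.3.0 with sctransform 0.4.2 (R 4.3.3) clustered the cells on 3000 variable genes without the 32 members, after regressing out the mitochondrial share and scores of the cell cycle, with 30 components and resolution 0.8. A class was named where its markers had a mean log2 ratio of at least 1 and at least 3 stood in 25% of its cells. Sums and exact intervals were computed in Python 3.11.15 with numpy 2.4.6 and scipy 1.17.1, and the fold count was tested on simulated data. These were Poisson sums with folds set in genes above a minimum level in the kept cells. They do not cover members near 0 in the other cells or uneven between marked cells. Genes with at least 20 UMIs in the kept cells, the marked ones included, entered fold counts.

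With 1 library no comparison was tested. Members and lists were chosen with earlier results of these data known. Named genes are the members, genes of the fixed lists and, outside both, the 10 leading by fold. The split by *Pf4* and *Ccr2* was added after seeing values.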

Additional observations from a re-analysis of the deposited data

Results flagged for a closer look

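Barcodes with under 200 genes, which entered no comparison, held 47 UMIs of *Pf4* and 4 UMIs of *Fcer1g*, although no UMI of *Ptprc* or *Tyrobp* was found in any of the 372. The 47 UMIs of *Pf4* all stood in 1 barcode of 620 UMIs and 196 genes, with 12 UMIs of the megakaryocyte and platelet list and no hemoglobin UMI, whereas hemoglobin genes took 46.8% of the UMIs of these barcodes as a whole.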

How the results depend on the processing

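The number of marked cells ran from 33 to 56 under 8 alternatives, that of cells with the macrophage list alone from 19 to 23 and with the granulocyte list from 6 to 9, and 31 or 32 members passed the fold under 12 alternatives, of which *Ptprc* and *Tyrobp* had to wherever they select the cells. The alternative without the top cell of each gene was chosen after seeing the data. The summed levels moved more. In the marked cells the macrophage list (7207 CPM) and the granulocyte list (9696 CPM) stood at 5647 and 7574 CPM with outliers set at 5 median absolute deviations, 5653 and 7564 with no outlier filter, 6113 and 8427 with no doublets removed, 6671 and 10943 with 2 times the doublet rate, and 4018 and 5557 with neither filter. They stood at 8012 and 10779 CPM with at least 2 UMIs of *Ptprc* and *Tyrobp* together, 8979 and 10836 with a UMI of each, 7944 and 10686 in the immune-like cluster, 7446 and 8062 as means over cells, and 6708 and 6813 without the cell with the most UMIs of the list. In the other cells the macrophage list (7.82 CPM) was at 5.70 as a mean over cells and 3.79 without its top cell, and the granulocyte list (3.73 CPM) at 15.9 where a marked cell needed a UMI of each gene. The median share of other cells with a UMI of a member (0.186%) was 0.0694% and 0.0269% after thinning to 5000 and 3000 UMIs. No paired analysis was possible because there was 1 library. The 21 and 7 cells limit every value within the lists.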
